A study of Mus musculus with 583 samples.

Results

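Trp53, the gene of the transcription factor p53, and 9 genes that p53 is known to induce (Mdm2, Cdkn1a, Ccng1, Phlda3, Aen, Trp53inp1, Bax, Sesn2 and Zmat3) were followed through 6 ways of sequencing RNA from single mouse embryonic stem cells. The 10 genes were taken by name, through their Ensembl identifiers, from a table of 38924 mouse genes. All 10 passed the filter on low counts that kept 14293 genes. The cells belonged to J1, an embryonic stem cell line of the mouse, and every group was grown in 2i/LIF, a medium of MEK and GSK3 inhibitors with the cytokine LIF that holds such cells in naive pluripotency. The labels name no other agent, genotype or time point for any group.

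The groups differ in the method alone, as far as the labels say: Smart-seq2 and Smart-seq / C1, which read transcripts along their length and give read counts, and Drop-seq, SCRB-seq, MARS-seq and CEL-seq2, which tag the 3' end and count unique molecular identifiers (UMIs). Each was run as replicate libraries A and B, which gave 12 libraries and 583 cells. Amplification is by in vitro transcription in MARS-seq and CEL-seq2 and by PCR in the rest. Smart-seq / C1 takes its name from a microfluidic chip for cell capture, and CEL-seq2 is known to have been run on that chip in this study, although its label does not say so. A library is the unit of replication here. Nothing in the labels says that libraries A and B came from separate cultures, so p-values measure only the spread between these libraries, and the method cannot be told apart from the cells it was run on.

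As background, p53 protein is made constantly and degraded as fast by the ubiquitin ligase Mdm2, whose gene is itself a p53 target, so that damage or stress raises p53 activity mostly by stabilising the protein. Active p53 binds paired decamers near its target genes and induces brakes on the cell cycle, apoptosis factors and repair and metabolic genes. Mouse embryonic stem cells are known for abundant p53, which can repress pluripotency genes after DNA damage.

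Library totals ran from 583302 UMIs (Drop-seq B) to 34984056 reads (Smart-seq2 A), and median counts per cell from 16188 to 439870. All 9 naive stem cell markers were found with every method, at a summed level of 2874 to 7069 CPM (mouse gene counts scaled to the same total in each library) per library. The 10 feeder fibroblast markers summed to between 5.27 and 57.4 CPM per library, and Postn and S100a4 were at 0 in all libraries. Markers of primed pluripotency summed to 42.0 to 243 CPM, neural markers to 33.0 to 156 and primitive endoderm markers to 0 to 34.0. The cell barcodes that libraries A and B shared numbered 26 for CEL-seq2, 21 for SCRB-seq, 19 for MARS-seq and 0 for Drop-seq. In the last, 29 of 42 barcodes of library A and 12 of 34 of library B lay 1 base from another barcode of the same library, and joining them left 25 and 28 cells.

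A DNA site of the kind p53 binds was found within 3000 nt of the annotated start of 3 of the 10 genes (GENCODE M21, with the sequence from the RefSeq genome of GRCm38), and these are shown because the genes' joint variation from cell to cell is the main pattern described further on. The motif searched was the p53 response element, which is its paired decamer without spacer, with the core tetramer of each decamer intact and at most 2 other mismatches, on both strands. The capitals mark the element within 5 flanking bases on each side, read 5′ to 3′ along the strand of the gene.
Cdkn1a: ttcagGAACATGTCTTGACATGTTCagccc
Ccng1: ccggaACGCAAGCCCGGGCTAGTCTgcgcc
Zmat3: gtgagAAACAAGCCCAGGCATGTCTtggga

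The Cdkn1a element (chr17:29090928-29090947, plus strand) lies 48 nt upstream of the start of the gene and has 1 mismatch. In Ccng1 it is in an intron 356 nt downstream of the start (chr11:40754936-40754955, minus strand), also with 1 mismatch. The Zmat3 element (chr3:32364331-32364350, minus strand) is 1664 nt downstream of the start, in an exon of one of its annotated transcripts, with 0 mismatches. Of 21938 windows of the same length around the starts of protein-coding genes, 0.73% held an element with at most 1 mismatch, 3.59% with at most 2 and 0.11% with 0. A match describes letters and not binding, and the other 7 genes have no such match in this window.

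Trp53 transcripts (chr11:69580359-69591873, plus strand) were abundant with every method and highest with the full-length ones. The level, in TMM-scaled CPM (CPM after the TMM correction of library size), was 945 and 1862 in Smart-seq / C1 libraries A and B and 913 and 981 for Smart-seq2. CEL-seq2 gave 535 and 1058, and MARS-seq 265 and 313. Drop-seq gave 196 and 139, and SCRB-seq 143 and 209. CEL-seq2 B lay within the range of the full-length libraries and the other 7 libraries of 3' tags below it.

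On the log2 scale Trp53 was 2.00 ± 0.22 (SE) higher in full-length than in 3' tag methods (adjusted p = 6.94e-07, edgeR's quasi-likelihood test over 14293 genes). The median of all genes in this contrast was 0.21, and it ranged from 0.04 to 0.57 over the alternative settings, so the distance of a gene from it is given too. For Trp53 that distance was 1.79, and it ranged from 1.57 to 2.10. Among 3' tag methods, Trp53 was also higher with in vitro transcription than with PCR, by 1.48 ± 0.28 (adjusted p = 0.00114), with no overlap between the libraries. CEL-seq2 exceeded MARS-seq by 1.46 ± 0.39 (adjusted p = 0.0114). That last call was lost without CEL-seq2 B (0.91, adjusted p = 0.164), without MARS-seq A (1.35, adjusted p = 0.125) and without MARS-seq B (1.65, adjusted p = 0.0676). In Drop-seq against SCRB-seq (-0.07 ± 0.39) and Smart-seq / C1 against Smart-seq2 (0.57 ± 0.38) Trp53 did not pass the test. Of the 31-mers of its longest transcript, 7.73% also occur in the pseudogene Trp53-ps, to which 0 to 16 counts per library were assigned.

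Mdm2, the ubiquitin ligase that degrades p53 (chr10:117688875-117710758, minus strand), was highest on the C1 chip. Its TMM-scaled CPM was 266 and 217 in Smart-seq / C1 libraries, 246 and 219.9 in those of CEL-seq2, and 151 and 135 in those of Smart-seq2. The rest were lower, with 60.5 and 85.5 for MARS-seq, 37.2 and 126 for Drop-seq, and 92.5 and 81.0 for SCRB-seq. The 4 libraries made on the chip were above the other 8. Mdm2 rose in full-length against 3' tag methods (0.83 ± 0.24, adjusted p = 0.00865 by edgeR) and in CEL-seq2 against MARS-seq (1.66 ± 0.43, adjusted p = 0.00958). The first call was lost with limma on mean log2(CPM + 1) over cells (adjusted p = 0.0608) and the second without MARS-seq A (1.39, adjusted p = 0.13). Smart-seq / C1 against Smart-seq2 gave 0.75 ± 0.40 and did not pass (adjusted p = 0.217). In vitro transcription against PCR gave 0.65 (adjusted p = 0.131) and passed without Drop-seq B (1.13, adjusted p = 0.021).

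Cdkn1a encodes p21, the inhibitor of cyclin-dependent kinases through which p53 stops the cycle (chr17:29090976-29100727, plus strand). CEL-seq2 gave by far its highest levels, 1070 and 482 TMM-scaled CPM. Smart-seq2 (235 and 238) and MARS-seq (199 and 240) came next, and Smart-seq / C1 (142 and 53.3), SCRB-seq (120 and 71.8) and Drop-seq (135 and 77.3) were lowest. Libraries A and B differed widely in CEL-seq2 and in Smart-seq / C1, and CEL-seq2 did not overlap the other 10 libraries.

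Cdkn1a was 2.03 ± 0.34 higher on the log2 scale with in vitro transcription than with PCR among the 3' tag methods (adjusted p = 0.000417, edgeR) and 1.82 ± 0.47 higher in CEL-seq2 than in MARS-seq (adjusted p = 0.00884). The second call was lost without CEL-seq2 A (1.25, adjusted p = 0.118), MARS-seq A (1.60, adjusted p = 0.11) or MARS-seq B (1.92, adjusted p = 0.0613). In Smart-seq / C1 against Smart-seq2 it was -1.28 ± 0.45, short of the threshold (adjusted p = 0.0615). It passed there without Smart-seq / C1 A (-2.18, adjusted p = 0.00239), without CEL-seq2 A (-1.40, adjusted p = 0.0438) and without the filter on low counts (-1.36, adjusted p = 0.00497). Full-length against 3' tag gave -0.43 ± 0.28 (adjusted p = 0.221) and passed without Smart-seq / C1 A (-0.70, adjusted p = 0.0268). An antisense gene that is not in the table overlaps Cdkn1a, and 11.32% of the 31-mers of its longest transcript fall there. Without a stated use of strand, reads of the pair cannot be told apart.

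Ccng1 encodes cyclin G1, which recruits phosphatase 2A to Mdm2 (chr11:40748552-40755311, minus strand). Its levels were among the most even of the set. Smart-seq / C1 gave 253 and 269 TMM-scaled CPM, Smart-seq2 gave 283 and 300.3, and CEL-seq2 gave 299.7 and 292. Drop-seq followed with 107 and 121, SCRB-seq with 165 and 189.8 and MARS-seq with 114 and 65.6. These 6 libraries lay below the first 6. Ccng1 rose in full-length against 3' tag methods (0.86 ± 0.19, adjusted p = 0.000918, edgeR) and in CEL-seq2 against MARS-seq (1.74 ± 0.33, adjusted p = 0.00113), and did not pass in the other 3 contrasts.

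Bax, the effector that permeabilises mitochondria in apoptosis (chr7:45461697-45466898, minus strand), differed strongly between methods. Smart-seq2 libraries held 607.1 and 606.7 TMM-scaled CPM against 103 and 59.0 in Smart-seq / C1. Among 3' tag methods CEL-seq2 held 24.4 and 25.3 against 253 and 258 in MARS-seq. SCRB-seq gave 105 and 90.3, and Drop-seq 222 and 292. The 4 libraries of the chip held less Bax than 7 of the other 8, with Smart-seq / C1 A above SCRB-seq B.

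On the log2 scale Bax was -2.91 ± 0.34 in Smart-seq / C1 against Smart-seq2 (adjusted p = 6.05e-05) and -3.36 ± 0.37 in CEL-seq2 against MARS-seq (adjusted p = 4.59e-06), both by edgeR. It also passed, at 0.98 ± 0.19, in full-length against 3' tag methods (adjusted p = 0.000382), and at -0.99 ± 0.24 in in vitro transcription against PCR (adjusted p = 0.0071). Each of these 4 calls was kept in all 17 alternative settings. Drop-seq exceeded SCRB-seq by 1.40 ± 0.33 (adjusted p = 0.0414), a call lost in 8 of the 12 fits that left out a library, those without either library of Smart-seq2, MARS-seq, SCRB-seq or Drop-seq (adjusted p from 0.0722 to 0.279), and with limma. The neighbouring gene Gm45808 (chr7:45465984-45486811) overlaps the start of the Bax gene on the same strand, by 192 exon bases. It shares 15.33% of the 31-mers of the longest annotated Bax transcript, and 30.4% of those in the last 500 nt of that transcript. The annotated 3' end of the Bax gene lies outside Gm45808. Gm45808 is not in the table.

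Trp53inp1 encodes a nuclear protein that enhances p53-dependent apoptosis and takes part in autophagy (chr4:11156431-11174379, plus strand). Smart-seq / C1 gave 281 and 401 TMM-scaled CPM against 92.8 and 98.9 for Smart-seq2. CEL-seq2 gave 179 and 164 against 44.5 and 24.6 for MARS-seq, and Drop-seq 82.0 and 40.3 against 107 and 109.7 for SCRB-seq. As with Mdm2, the 4 libraries of the chip were above the other 8. Trp53inp1 was 1.83 ± 0.37 higher in Smart-seq / C1 than in Smart-seq2 (adjusted p = 0.00263, edgeR), 2.34 ± 0.41 higher in CEL-seq2 than in MARS-seq (adjusted p = 0.000521) and 1.19 ± 0.22 higher in full-length than in 3' tag methods (adjusted p = 0.000196). The first of these was lost without Smart-seq2 A (1.74, adjusted p = 0.0682), without Smart-seq2 B (1.84, adjusted p = 0.0528) and with limma (1.76, adjusted p = 0.0733).

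Aen, an exonuclease that promotes apoptosis (chr7:78895854-78911209, plus strand), was a low transcript in 3' tag data, at 8.40 to 27.8 TMM-scaled CPM. Smart-seq / C1 gave 28.1 and 48.1 and Smart-seq2 133 and 134, so that full-length and 3' tag libraries did not overlap (2.15 ± 0.27, adjusted p = 2.86e-06, edgeR). The log2 difference of Smart-seq / C1 from Smart-seq2 was -1.81 ± 0.43 (adjusted p = 0.00904), which was lost without Smart-seq2 A (adjusted p = 0.0929) or B (adjusted p = 0.0958).

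Phlda3, a pleckstrin homology protein that inhibits Akt (chr1:135766119-135769136, plus strand), and Sesn2, a stress-induced inhibitor of mTORC1 signalling (chr4:132492032-132510501, minus strand), were low where Smart-seq / C1 or SCRB-seq was used. Smart-seq / C1 gave 21.8 and 7.21 TMM-scaled CPM of Phlda3, SCRB-seq 14.2 and 14.8, Drop-seq 26.3 and 48.3, MARS-seq 44.5 and 38.7, Smart-seq2 77.4 and 78.5, and CEL-seq2 80.6 and 161. For Sesn2, Smart-seq / C1 gave 38.1 and 8.91, SCRB-seq 17.7 and 18.98, Drop-seq 39.4 and 75.7, MARS-seq 53.4 and 78.5, Smart-seq2 170.2 and 122, and CEL-seq2 46.2 and 128. In both genes the 4 libraries of Smart-seq / C1 and SCRB-seq were the lowest.

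Smart-seq / C1 was lower than Smart-seq2 for Phlda3 (-2.42 ± 0.51, adjusted p = 0.00385, edgeR) and Sesn2 (-2.63 ± 0.59, adjusted p = 0.00652, lost without Smart-seq2 A at an adjusted p of 0.0509). Leaving out Smart-seq / C1 A gave -4.06 for Sesn2. In vitro transcription exceeded PCR for Phlda3 (1.62 ± 0.39, adjusted p = 0.00642, lost without Drop-seq A at 0.0669). The same contrast passed narrowly for Sesn2 (1.24 ± 0.43, adjusted p = 0.049) and was lost in 9 of the 12 fits that left out a library, with a smallest value of 0.78 without CEL-seq2 B. Full-length against 3' tag did not pass for either gene, except for Sesn2 without Smart-seq / C1 B (0.74, adjusted p = 0.0443). Phlda3 also passed narrowly in CEL-seq2 against MARS-seq (1.55 ± 0.53, adjusted p = 0.0411), again lost in 9 of 12 such fits, with the smallest value of 0.98 without CEL-seq2 B.

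Zmat3, an RNA-binding zinc finger protein (chr3:32334792-32366014, minus strand), differed least. Its level was between 45.9 (Drop-seq A) and 106 TMM-scaled CPM (SCRB-seq A), with method means from 56.0 to 83.9. It was the only member that did not pass the joint test of all methods (adjusted p = 0.732), which 65.5% of all genes passed. Its log2 differences ran from -0.59 ± 0.40 (Drop-seq against SCRB-seq) to 0.27 ± 0.40 (CEL-seq2 against MARS-seq). With limma on mean log2(CPM + 1) over cells it passed in those 2 contrasts, at -2.48 (adjusted p = 0.00873) and 1.78 (adjusted p = 0.022).

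**Figure D1:**
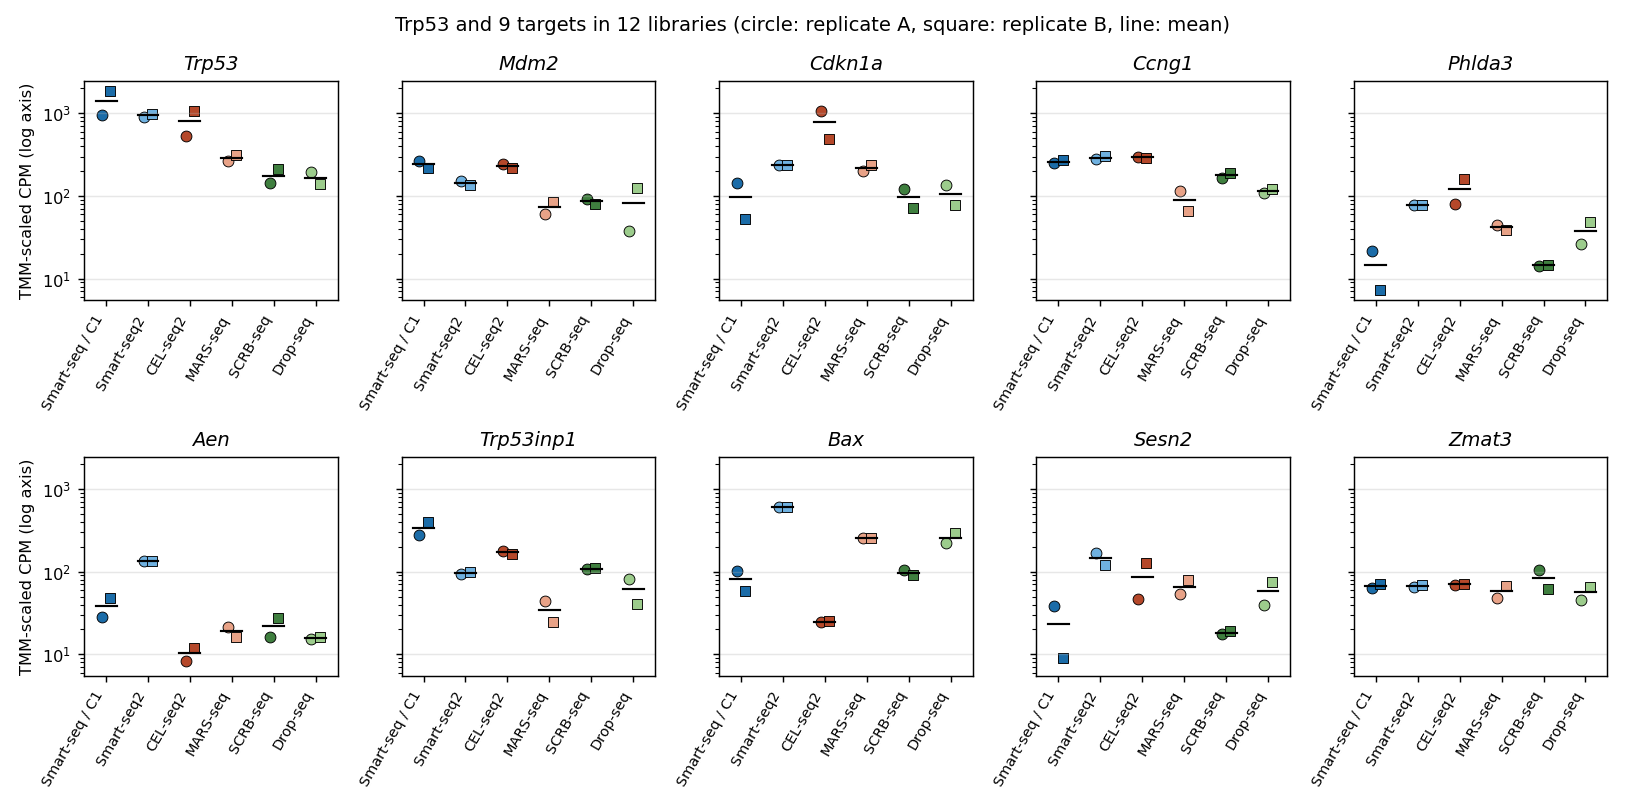
TMM-scaled CPM (log axis) of each gene in the 12 libraries, with circles for replicate A, squares for replicate B and a line at the mean of the pair. Bax spans 24.4 to 607, with pairs that nearly coincide in Smart-seq2, CEL-seq2 and MARS-seq and lie apart in Smart-seq / C1 (103 and 59.0), whereas Zmat3 stays between 45.9 and 106.

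Between genes, levels were compared per length within the full-length data. Divided by the length of the longest transcript and averaged over the 4 full-length libraries, Trp53 had 359 TMM-scaled CPM per kb and Bax 313, and the others followed from Cdkn1a (80.4) and Ccng1 (78.7) down to Zmat3 (8.59). Dividing by the union of exons instead exchanged Cdkn1a (47.1) and Ccng1 (78.7) and left the other ranks as they were. The order hid a difference between the methods: Bax was at 93.5 and 53.7 per kb in Smart-seq / C1 and at 552 and 552 in Smart-seq2, where it exceeded Trp53 (279 and 299). UMI levels, not divided by length, gave other orders. In CEL-seq2 the mean TMM-scaled CPM was 797 for Trp53, 776 for Cdkn1a and 24.8 for Bax. In Drop-seq these means were 167, 106 and 257.

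The members moved up in some contrasts and down in others. Full-length against 3' tag methods raised 6 of the 10 and lowered 0, where 25.6% of all genes were higher and 23.2% lower. Aen was the only one of these whose full-length and 3' tag libraries did not overlap. For Bax, Smart-seq / C1 lay below MARS-seq and Drop-seq, and for Mdm2 and Trp53inp1, Smart-seq2 lay below CEL-seq2. The members' median of 0.85 compares with 0.21 over all genes. That median differed by length of the longest transcript: -4.69 under 1000 nt, 0.04 from 1000 to 2000 nt and 0.44 to 0.59 in the longer classes. The members' longest transcripts have 1100 (Bax) to 7797 nt (Zmat3). The part of length was not tested. Smart-seq / C1 against Smart-seq2 raised 1 (Trp53inp1) and lowered 4 (Bax, Phlda3, Aen and Sesn2), with 8.76% of all genes higher and 6.82% lower. The members' median there was -0.72, beside 0.11 for all genes.

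Among the 3' tag methods, in vitro transcription against PCR raised 4 members (Trp53, Cdkn1a, Phlda3 and Sesn2) and lowered Bax, beside 9.14% of all genes higher and 12.9% lower. CEL-seq2 against MARS-seq raised 6 and lowered 1 (Bax), beside 11% and 12.4% of all genes. In it the median was -1.92 for genes with a longest transcript under 1000 nt and 0.75 from 6000 nt up. Drop-seq against SCRB-seq raised Bax and lowered 0, beside 1.03% and 0.483%. With DESeq2 size factors in place of TMM, the share of higher genes among all calls of that last contrast went from 68.1% to 86.2%. The median difference of all genes moved from -0.09 to 0.11. Bax kept its call there.

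**Figure D2:**
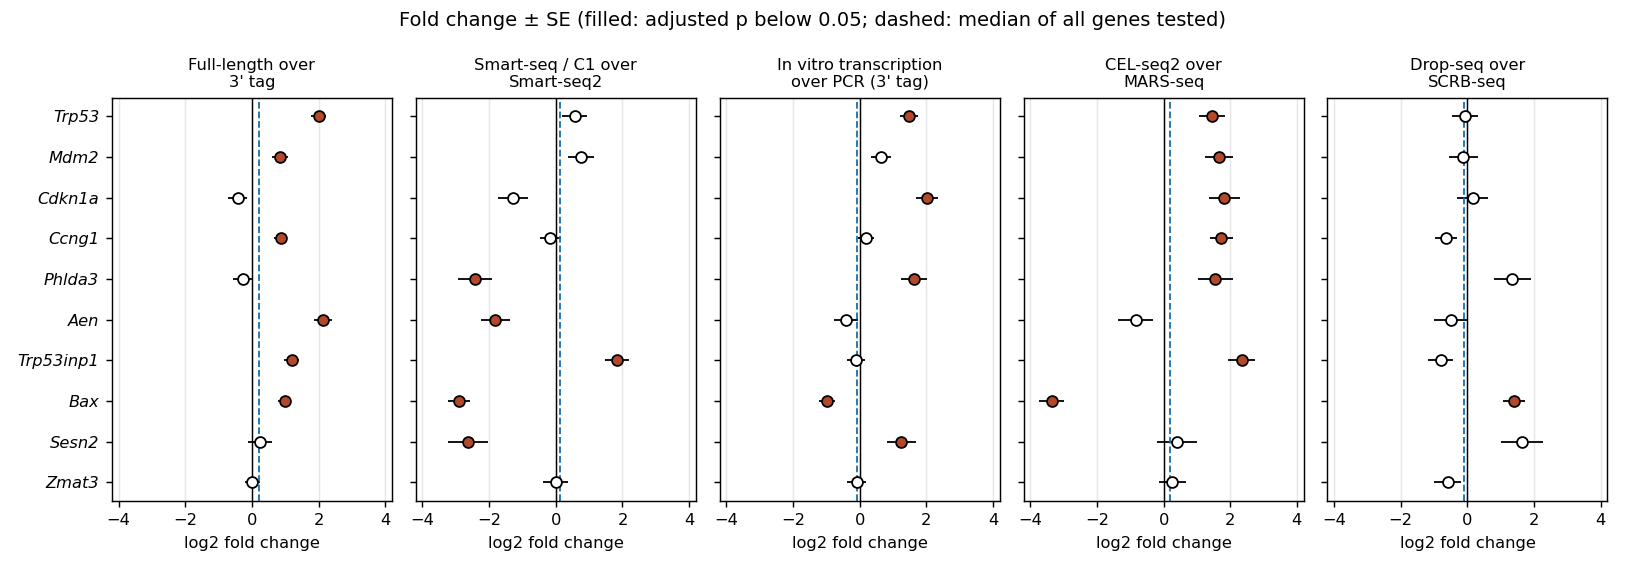
Log2 fold change ± SE of each gene in 5 contrasts from the edgeR fit, filled where the adjusted p is below 0.05, with a dashed line at the median of all genes tested. Bax passes in all 5 panels and changes sign among them, and Zmat3 passes in none.

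The 2 contrasts that set a C1 chip method against a plate method can be compared directly. This contrast of contrasts was chosen after the values had been seen. The C1 step of full-length methods less that of CEL-seq2 against MARS-seq was lower for 4 of the 10 genes and higher for 0, beside 7.16% and 8.58% of all genes. The 4 were Phlda3 (-3.97 ± 0.73, adjusted p = 0.00148, edgeR), Cdkn1a (-3.09 ± 0.65, adjusted p = 0.0035), Sesn2 (-3.04 ± 0.83, adjusted p = 0.0197) and Ccng1 (-1.90 ± 0.45, adjusted p = 0.00837). For Bax the contrast was 0.45 ± 0.47 and for Trp53inp1 -0.51 ± 0.54, and neither passed.

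The base composition of the transcripts moved with the contrast of Smart-seq / C1 and Smart-seq2. Genes whose longest transcript has under 40% GC had a median log2 difference of 1.26, and genes with at least 60% GC a median of -1.71. Trp53inp1, at 38.8% GC, was the only member that passed as higher in Smart-seq / C1, and Bax (63.6%), Phlda3 (62.6%), Sesn2 (58.7%) and Aen (51.6%) passed as lower. Bax at -2.91, Sesn2 at -2.63 and Aen at -1.81 lay below the middle 50% of genes of their GC class, as did the uncalled Cdkn1a (-1.28) and Ccng1 (-0.16), and Trp53 (0.57) lay above it. In CEL-seq2 against MARS-seq the same classes had medians of 0.74 and -0.29. Phlda3 (1.55) and Bax (-3.36), which are close in GC, lay on opposite sides. The part of GC content in these differences was not tested.

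**Figure D3:**
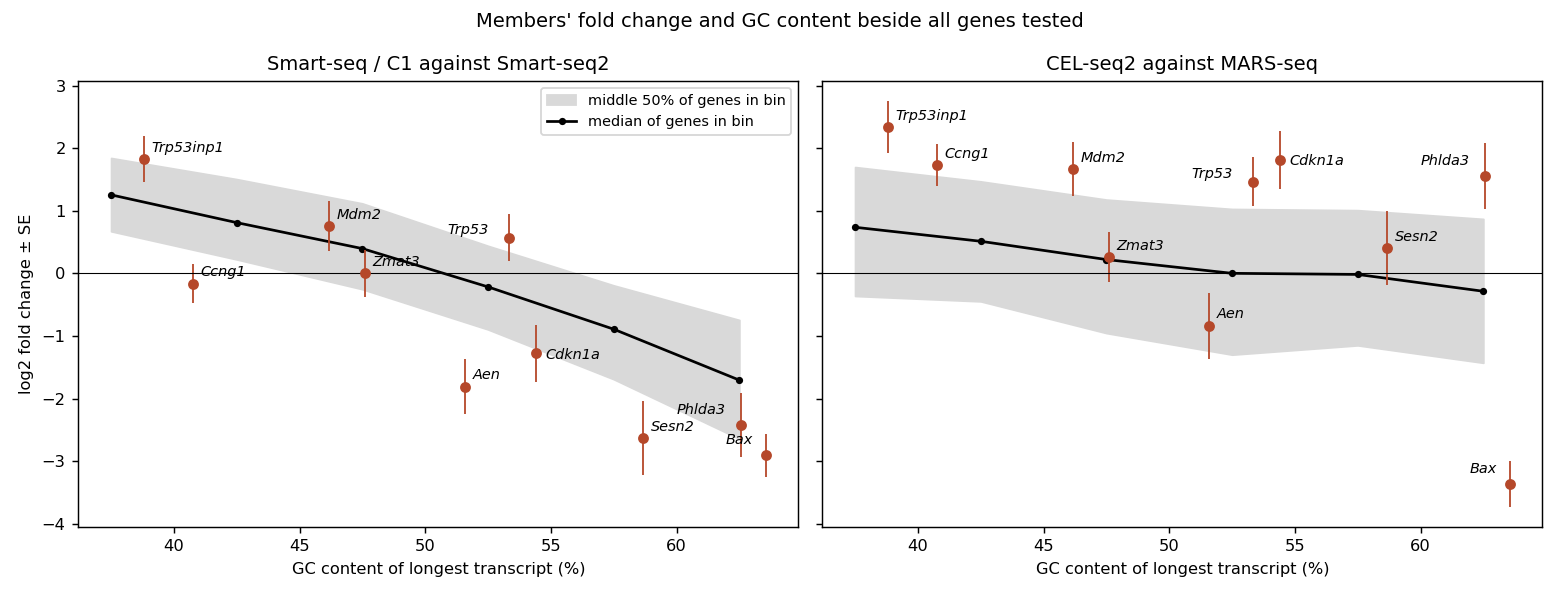
GC content of the longest transcript (%) against the log2 fold change ± SE of the 10 genes, with the median and middle 50% of all genes in GC classes drawn at 5-point steps. In the left panel the members fall from Trp53inp1 (1.83) to Bax (-2.91), and in the right panel Phlda3 (1.55) and Bax (-3.36) lie apart at nearly the same GC.

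Within libraries, single cells differed in target expression by more than the trend of other genes in several cases. Variation was measured after thinning each cell to 10000 counts, as log2 of the squared coefficient of variation above the trend on the mean, for the 2653 genes that averaged 0.2 counts per cell or more in every library. Trp53, Mdm2, Cdkn1a, Ccng1, Bax and Zmat3 met this, and the other 4 were too low in at least 1 library. Over the 12 libraries the residual of Ccng1 ran from -0.11 (Drop-seq B) to 1.43 (CEL-seq2 A) and was above 0 in 11. That of Cdkn1a ran from -0.56 (Smart-seq / C1 B) to 1.35 (Smart-seq2 B), above 0 in 11, and that of Mdm2 from -0.53 (SCRB-seq B) to 1.84 (Smart-seq / C1 A), above 0 in 8.

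Ccng1 (0.55 ± 0.11, adjusted p = 0.00188, limma), Mdm2 (0.41 ± 0.11, adjusted p = 0.0262) and Cdkn1a (0.40 ± 0.11, adjusted p = 0.0221) passed, where 2.53% of all genes tested did. Ccng1 ranked 23 by residual. Zmat3 (0.13 ± 0.11) did not pass, and neither did Bax (-0.20 ± 0.10), which was below the trend in 11 of 12 libraries, or Trp53 (-0.04 ± 0.13). With Drop-seq barcodes joined, Bax passed as less variable than the trend (-0.40, adjusted p = 0.0159). The call of Mdm2 was lost in 6 of 12 fits that left out a library (without Smart-seq / C1 A, Smart-seq2 A, Smart-seq2 B, CEL-seq2 B, MARS-seq B or SCRB-seq A, adjusted p up to 0.122). Cdkn1a was lost in 4 such fits (without Smart-seq / C1 A, Smart-seq2 B, CEL-seq2 B or SCRB-seq A, adjusted p up to 0.151) and when Drop-seq barcodes were joined (0.35, adjusted p = 0.0749). Ccng1 was kept in all 12 and was lost at 5000 counts per cell (0.29, adjusted p = 0.0805), where 1361 genes were tested. With the minimum lowered to a mean of 0.1, Trp53inp1 entered the test and passed (0.60 ± 0.10, adjusted p = 0.000283), and Mdm2 no longer did (adjusted p = 0.0548).

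In plain CPM per cell, Smart-seq2 A cells ranged in Ccng1 from 0 through a median of 310 to 1269. Cells of CEL-seq2 A ranged from 0 through 175 to 1586. For Trp53 the cells of Smart-seq2 A ran from 571 through 1113 to 1777, a spread that was narrower relative to the median. Bax in the same library ran from 380 through 719 to 1243.

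Targets varied together from cell to cell. With all counts, as log2(CPM + 1), each of the 36 pairs among the 9 targets had a mean Spearman correlation above 0 over the 12 libraries, from 0.05 to 0.37 with a median of 0.14. The strongest was Ccng1 with Trp53inp1, which was 0.80 and 0.65 in Smart-seq2 A and B, 0.50 and 0.66 for CEL-seq2 and 0.42 and 0.26 for Smart-seq / C1. SCRB-seq gave 0.23 and 0.31, MARS-seq 0.20 and 0.20, and Drop-seq 0.23 and -0.04. Thus 11 of 12 libraries were above 0, and Smart-seq2 and CEL-seq2 were highest.

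Ccng1 with Phlda3 reached 0.74 and 0.57 with Smart-seq2 and 0.34 and 0.66 with CEL-seq2, with a mean of 0.29 over all 12. Mdm2 with Ccng1 averaged 0.30 and Mdm2 with Trp53inp1 0.29, each above 0 in 11 libraries. Cdkn1a with Trp53inp1 (mean 0.26, from 0.06 to 0.42) was above 0 in all 12. Weakest among the targets was Aen with Trp53inp1 (0.05), and pairs with Bax averaged 0.08 over the other 9 members.

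**Figure D4:**
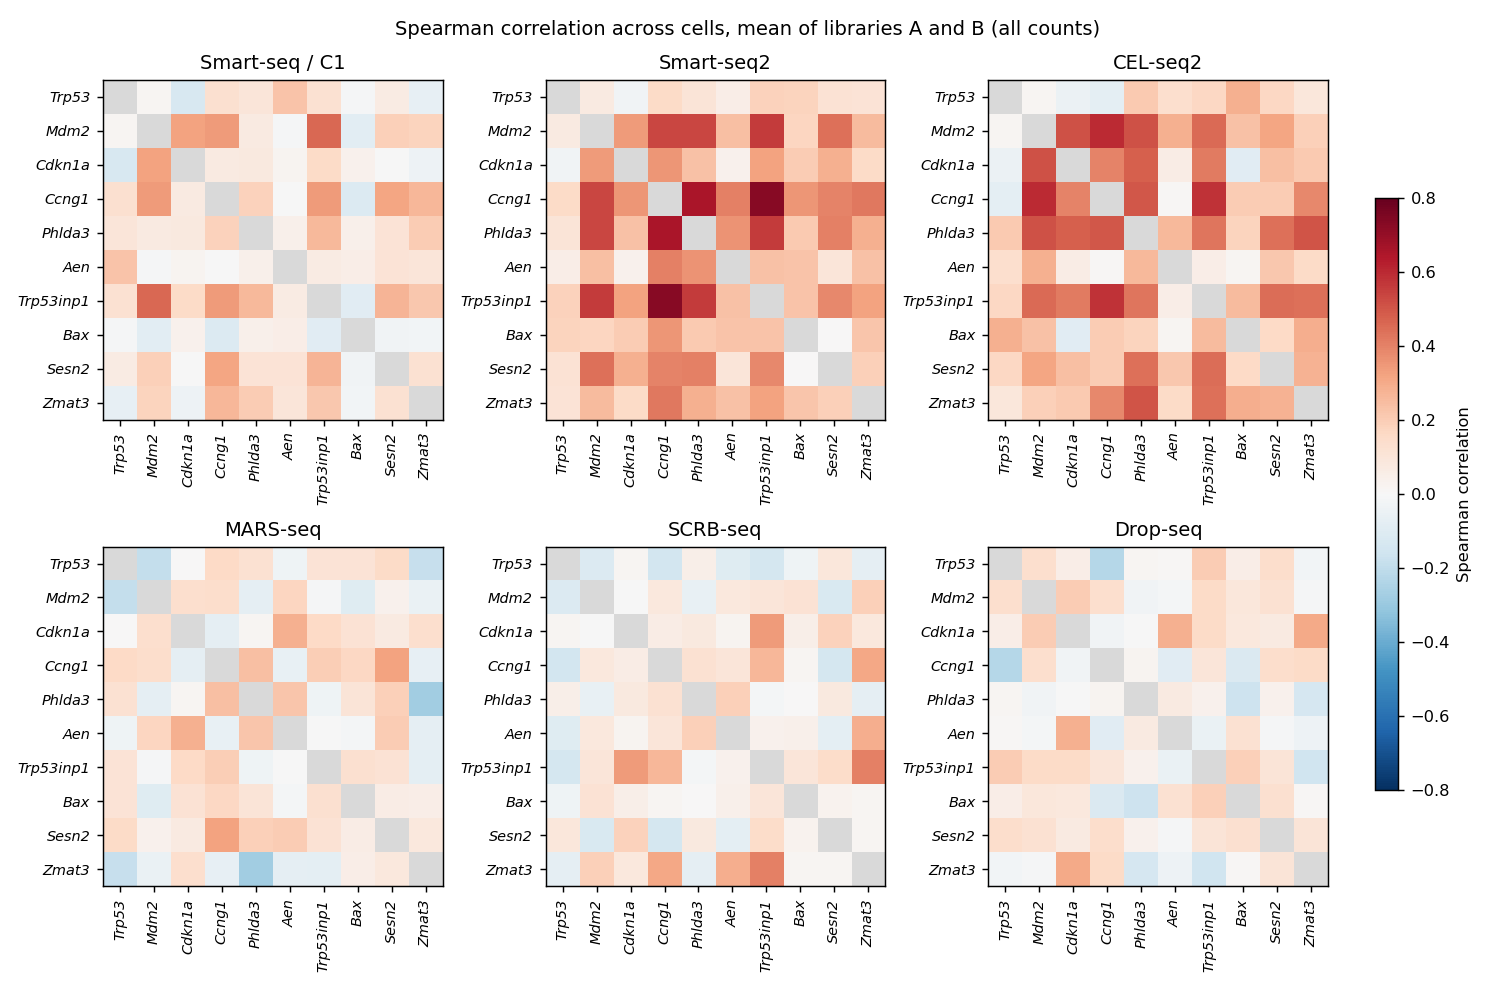
Spearman correlation across cells for each pair of the 10 genes, as the mean of libraries A and B of each method, from all counts (colour scale from -0.8 to 0.8, with the diagonal left grey). The targets form a block of positive values in Smart-seq2 and CEL-seq2 that is paler in the other methods, and most of the Trp53 row is pale.

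Trp53 mRNA itself gave mean values nearer to 0. Its pairs with the 9 targets had mean correlations from -0.02 to 0.12, with 5 of 9 above 0, and those with Mdm2 (-0.01), Cdkn1a (-0.02), Ccng1 (0.00) and Zmat3 (-0.02) were close to 0. Libraries differed in this: the median of the 9 Trp53 pairs was 0.24 in CEL-seq2 A, beside 0.27 for its target pairs, and 0.14 in Smart-seq2 B, where all 9 were above 0. In SCRB-seq B it was -0.12. The summed CPM of the 9 targets correlated with Trp53 between -0.22 and 0.23 in single libraries. Over the cells of Smart-seq2 A that sum ran from 734 through a median of 2119 to 4962 CPM. In CEL-seq2 B it ran from 256 through 1398 to 4173, and in SCRB-seq B from 229 through 624 to 1405.

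**Figure D5:**
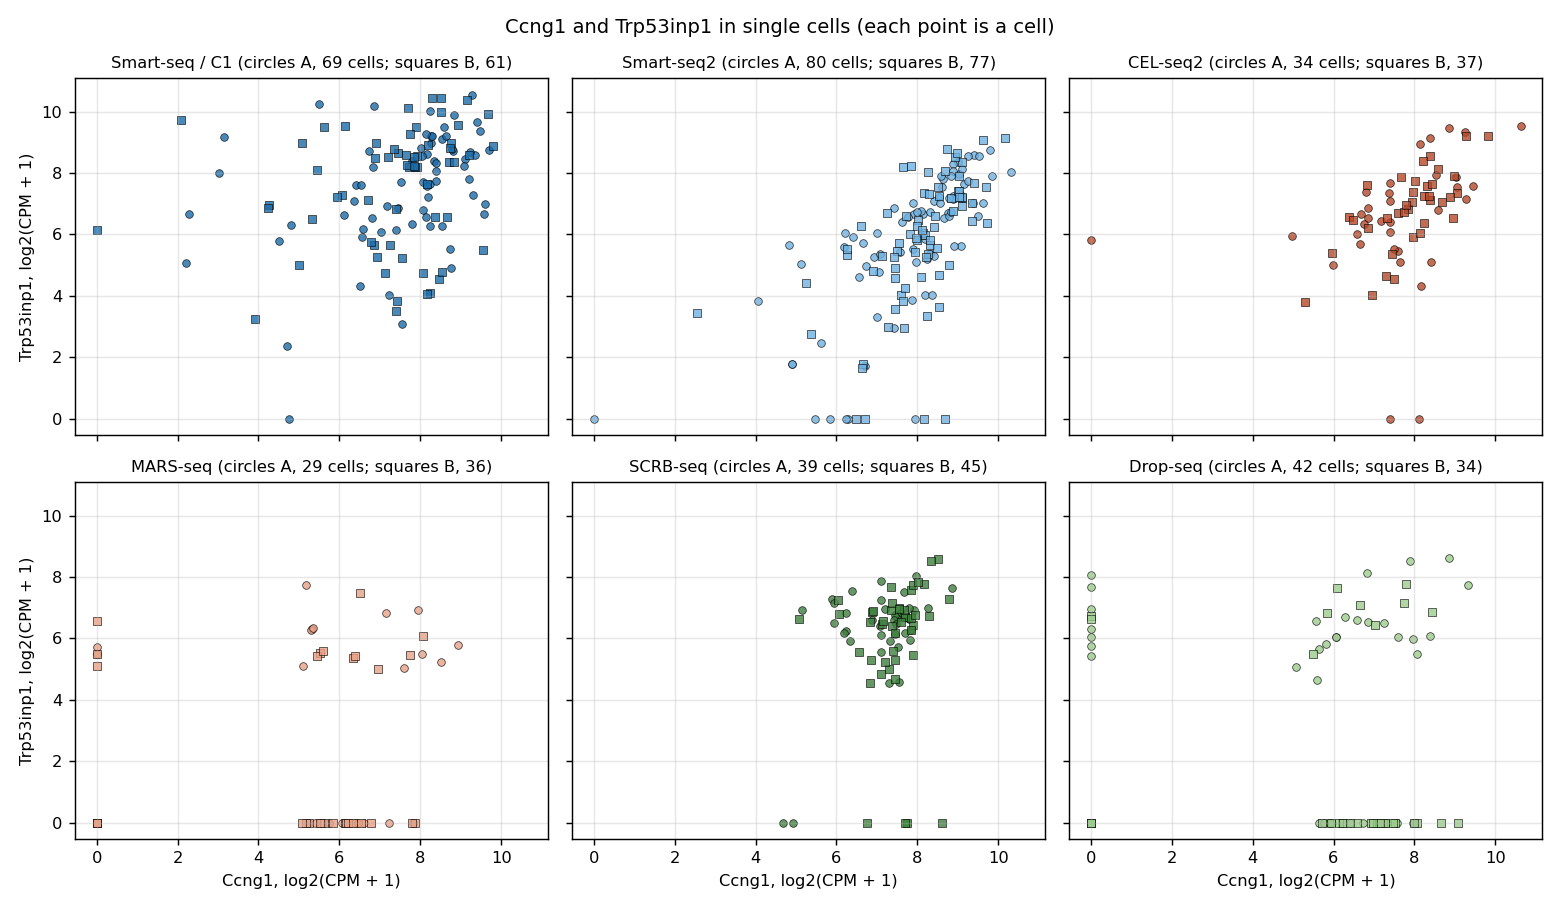
Ccng1 (x axis) and Trp53inp1 (y axis), both log2(CPM + 1), in each cell, with circles for library A and squares for library B. Smart-seq2 and CEL-seq2 cells follow a rising band (0.80 and 0.65, and 0.50 and 0.66), whereas many MARS-seq and Drop-seq cells lie at 0 for at least 1 of the genes.

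These correlations are descriptions of cells that share a library and carry no p-value. Member pairs were positive in 73.5% of the 540 pair-by-library values, beside 51.5% of the correlations of the members with 2647 other genes in the same libraries. By library, the median over 45 pairs was 0.27 and 0.26 with Smart-seq2 and, to this precision, the same with CEL-seq2. Smart-seq / C1 gave 0.10 and 0.12, Drop-seq 0.06 and 0.04, MARS-seq 0.10 and -0.01, and SCRB-seq 0.04 and 0.06. The matching medians with other genes lay between -0.01 and 0.02. Median counts per cell were 49576 and 44030 with SCRB-seq and 35652 in CEL-seq2 A, and the part of depth in these differences between libraries was not tested.

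The values were smaller at an equal number of counts per cell. After thinning every cell to 10000 counts, the median over all pairs and libraries was 0.05 in place of 0.13. Of the pair-by-library values 62.4% were above 0, against 49.9% for other genes. As means over the libraries, 29 of the 36 target pairs were above 0, beside 50.49% of the pairs of a member with another gene. At 5000 counts the median was 0.03. By library, the thinned medians were 0.11 and 0.11 with Smart-seq2, 0.13 and 0.15 with CEL-seq2 and 0.09 and 0.05 with Smart-seq / C1. MARS-seq gave 0.03 and -0.005, Drop-seq 0.02 and 0.01, and SCRB-seq -0.02 and 0.02. In SCRB-seq A, 35.6% of the pairs were above 0, beside 50.5% of those with other genes. Ccng1 with Trp53inp1 was again the highest pair (mean 0.21, from -0.07 to 0.61), now above 0 in 8 of 12 libraries. With sparse counts of this kind, values near 0 are no finding. The summed targets correlated with the total count of the cell from -0.13 to 0.37, with the mitochondrial share from -0.37 to 0.35 and with the spike-in share from -0.27 to 0.30 across the 12 libraries. In Smart-seq2 A those 3 values were 0.13, 0.01 and -0.03, and in CEL-seq2 B -0.07, -0.12 and 0.04. Joining the Drop-seq barcodes gave a median of 0.06 over all pairs after thinning.

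Correlations with cycle genes were small on average over libraries. In thinned cells the mean correlation of a member with the summed 20 G1/S genes ran from -0.07 (Bax) to 0.08 (Trp53), and with the summed 22 G2/M genes from -0.09 (Zmat3) to 0.05 (Cdkn1a). Single libraries ranged from -0.43 (Trp53inp1, G2/M) to 0.41 (Trp53, G1/S). For scale, the median over member pairs in such cells was 0.05.

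For some members the genes most like them across cells included other members. Trp53, Aen, Bax and Sesn2 had no other member among their first 3, in thinned cells or from all counts. In thinned cells, among the 2653 genes of the variation test, Ccng1 was the gene most like Mdm2 (mean correlation 0.17), Ccng1 had Dhx16 (0.19), an RNA helicase, Cd81 (0.18), a tetraspanin, and then Mdm2 (0.17), and Ccng1 was first for Trp53inp1 (0.21). Cdkn1a was most like Txnip (0.17), Bax like Hcfc1 (0.18), Zmat3 like Son (0.17) and Trp53 like Rplp0 (0.17). From all counts, Psrc1, itself a reported p53 target and on the list of other targets, was first for Ccng1 (0.34) and Sesn2 (0.25) and among the first 3 for Mdm2 (0.23), Cdkn1a (0.21), Trp53inp1 (0.29) and Zmat3 (0.17). Ccng1 was first for Mdm2 (0.30), Phlda3 (0.29), Trp53inp1 (0.37) and Zmat3 (0.24). Genes on none of the lists also recurred among the first 3. They were Cd81 for Ccng1 (0.31), Phlda3 (0.26) and Trp53inp1 (0.29), Dhx16 for Ccng1 (0.30), Phlda3 (0.24) and Sesn2 (0.23), and Ak1 for Sesn2 (0.23) and Zmat3 (0.17). In thinned cells Psrc1 was not among the first 3 of any member.

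How many members a cell showed depended on the method even at an equal number of counts. These counts are reads for Smart-seq2 and Smart-seq / C1 and UMIs for the rest, so they are not equal samples of molecules. At 10000 counts per cell the median number of the 10 genes seen was 7 in both Smart-seq2 libraries and in CEL-seq2 B, 6 in CEL-seq2 A and Smart-seq / C1 A, and 4 or 5 in the other 7. With all counts Smart-seq2 reached 10, CEL-seq2 reached 8 and 9, and Drop-seq 5.5 and 6. All cells were of 1 line, so no cells lacking these transcripts were at hand to set a level for free RNA.

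Trp53 was seen in 100% of thinned cells of Smart-seq / C1, Smart-seq2 and CEL-seq2 (at least 89.7% by the exact Clopper-Pearson 95% interval in the smallest of these libraries, CEL-seq2 A). It was seen in 69.2% to 88.9% of the cells of the other methods, and in 88.2% to 100% of theirs with all counts. Bax was seen in 100% of the thinned cells of Smart-seq2, in 20.6% (8.70% to 37.9%) and 21.6% (9.83% to 38.2%) of those of CEL-seq2, and in 82.8% (64.2% to 94.2%) and 80.6% (64.0% to 91.8%) of those of MARS-seq. With all counts, CEL-seq2 showed Bax in 47.1% and 78.4% of cells. Intervals cover counting error only, and reads without molecular identifiers are not independent molecules.

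Other genes of the pathway also differed between methods. Of 20 regulators of p53, 19 were tested (not Trp63), and 8 rose and 3 fell in full-length against 3' tag methods, where 25.6% of all genes were higher and 23.2% lower. Their median was 0.55, beside 0.21 for all genes and 0.44 to 0.59 in the classes of length from 2000 nt up. Rchy1, a ubiquitin ligase of p53, was 1.45 ± 0.29 higher (adjusted p = 0.000494, edgeR), and Wrap53, a telomerase cofactor, 1.45 ± 0.30 higher (adjusted p = 0.000722). Cdkn2a, whose product Arf inhibits Mdm2, was lower (-2.79 ± 0.58, adjusted p = 0.000669), with 42.9 TMM-scaled CPM in Drop-seq and 1.27 in Smart-seq / C1. In Smart-seq / C1 against Smart-seq2, 7 regulators rose and 1 fell (8.76% and 6.82% of all genes), among them Usp7, which deubiquitinates Mdm2 and p53 (1.44 ± 0.29, adjusted p = 0.00325), and the checkpoint kinase Chek1 (1.22 ± 0.38, adjusted p = 0.0373).

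Of 32 other reported p53 targets, 30 were tested (not Fas and Dram1), and 8 rose and 4 fell in full-length against 3' tag methods, beside 25.6% and 23.2% of all genes, so that the rising share is near that of all genes. Gtse1, a p53-binding protein of G2 and S phase, was 1.70 ± 0.25 higher (adjusted p = 1.72e-05, edgeR), and Btg2, an antiproliferative factor, 1.21 ± 0.25 higher (adjusted p = 0.000658). Rrm2b, a ribonucleotide reductase subunit, was lower (-2.61 ± 0.45, adjusted p = 0.000102). Its mean was 116 TMM-scaled CPM in SCRB-seq and 33.5 in Drop-seq. CEL-seq2 (14.4) and MARS-seq (8.27) lay nearer to Smart-seq / C1 (7.08) and Smart-seq2 (2.43). Rps27l had the highest level on this list, at 286 to 1273. In vitro transcription against PCR raised 8 and lowered 1 (9.14% and 12.9% of all genes), and Smart-seq / C1 against Smart-seq2 raised 2 and lowered 4 (8.76% and 6.82%). In Drop-seq against SCRB-seq 0 of the 30 passed.

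Among the 9 relatives of Bax, 7 were tested (not Bcl2 and Bcl2l2), and 2 rose and 2 fell in full-length against 3' tag methods, shares near the 25.6% and 23.2% of all genes. Bid, an activator of Bax, was 1.57 ± 0.31 higher (adjusted p = 0.000397, edgeR), whereas Mcl1, which protects from apoptosis, was lower (-0.82 ± 0.20, adjusted p = 0.00233), and so was Bak1, the other mitochondrial effector (-2.01 ± 0.58, adjusted p = 0.00822). Of 13 partners of p21, 6 rose and 3 fell in that contrast, the falling share again near that of all genes. Cdk6 was 2.39 ± 0.26 higher (adjusted p = 4.57e-07), Cdk2 0.94 ± 0.21 higher (adjusted p = 0.00104) and Cdk4 0.77 ± 0.19 higher (adjusted p = 0.00222), and Pcna, the replication clamp, was lower (-1.11 ± 0.21, adjusted p = 0.000296). The mean of Cdk2 was nevertheless highest in CEL-seq2 (244 TMM-scaled CPM), above Smart-seq2 (159) and Smart-seq / C1 (69.0), and 22.3 to 60.4 in the other 3' tag methods. In Smart-seq / C1 against Smart-seq2, 3 of the 13 fell and 0 rose (6.82% and 8.76% of all genes), among them Cdk2 (-1.21 ± 0.34, adjusted p = 0.0209).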

How the data were processed

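The authors deposited 1 table of counts per gene and cell, with 38924 mouse genes and 92 spike-ins in 583 cells. Per the submitters' processing notes, bcl2fastq, STAR 2.4.0 and the mm10 genome were used. What counted the reads, the annotation and the use of strand are not given in the sources used here. The members and gene lists were chosen with earlier results of these data known. Symbols came from GENCODE M21 (37607 identifiers matched).

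Counts were summed per library, filtered with filterByExpr (14293 genes), scaled by TMM and fitted with edgeR 4.0.16 (robust quasi-likelihood, 1 mean per method, 6 residual degrees of freedom). Benjamini-Hochberg adjusted p-values below 0.05 passed. Spike-ins stayed out. DESeq2 1.42.0 and limma 3.58.1 (on mean log2(CPM + 1), pseudocount 1) were alternatives. On simulated counts of the full-length against 3' tag contrast, 62.5% to 68.6% of genes changed by 2 log2 units and 17.1% to 22.0% of those changed by 1 were called.

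Variation was tested with limma on thinned cells (10000 counts, loess span 0.5). Correlations were computed within libraries. All deposited cells were kept, without doublet calling. Library totals of 583302 to 34984056 counts set the precision. Named were the 10 members, up to 3 genes of smallest p and 2 of highest level per list, and the 3 genes most like a member. Psrc1 and the genes most like members from all counts were chosen after their values were seen.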

Additional observations from a re-analysis of the deposited data

Results flagged for a closer look

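For 4 members the effect of the C1 chip method differed between the full-length pair and the in vitro transcription pair, by a test of the difference itself in the edgeR fit, which was chosen after the values had been seen. For Cdkn1a the difference was -3.09 on the log2 scale, from -1.28 in Smart-seq / C1 against Smart-seq2 and 1.82 in CEL-seq2 against MARS-seq. The value for Phlda3 was -3.97, from -2.42 and 1.55. Sesn2 had -3.04, from -2.63 and 0.41, and lost its call without Smart-seq2 A (-2.81), CEL-seq2 B (-2.13) or MARS-seq A (-2.92). Ccng1 had -1.90, from -0.16 and 1.74, and lost its call without MARS-seq B (-1.70). The pairs also differ in readout and amplification, which cannot be told apart from the chip here.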

How the results depend on the processing

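Of 28 calls of members in the 5 contrasts and the C1 difference, 15 were kept in all 17 alternative settings, 16 in all fits that left out a library and 23 in all others, and 0 reversed. Limma on mean log2(CPM + 1) called 6484 genes in CEL-seq2 against MARS-seq (3345 in edgeR), 4066 in Drop-seq against SCRB-seq (216) and 6506 for the C1 difference (2251). Drop-seq against SCRB-seq gave 954 with DESeq2, 325 with DESeq2 size factors in edgeR and 469 without the filter. Leaving out a library gave 609 to 3306 genes for Smart-seq / C1 against Smart-seq2 (2227), 1746 to 3847 for in vitro transcription against PCR (3144), 1779 to 3931 for CEL-seq2 against MARS-seq, 11 to 626 for Drop-seq against SCRB-seq, 1105 to 2902 for the C1 difference and 34 to 88 variable genes (67). In such fits the lone library of a method is assumed to vary like the others. Thinning to 5000 left 23 variable genes. The median pair correlation (0.05 thinned) was 0.13 from all counts, 0.03 at 5000 counts per cell, and 0.05 to 0.06 without a library. The share of cells in which a member was seen averaged 54.1% at 10000 counts, 39.3% at 5000 and 79.96% with all counts. Limma also passed uncalled members in CEL-seq2 against MARS-seq (Sesn2 at 2.28 and Zmat3 at 1.78), Drop-seq against SCRB-seq (Ccng1 at -2.01, Aen at -1.83, Trp53inp1 at -3.09 and Zmat3 at -2.48) and the C1 difference (Trp53, Mdm2, Aen, Trp53inp1 and Zmat3, from -3.48 to -1.73). The medians of all genes under limma were 0.85, -0.82 and -1.40 there. The causes were not tested.

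Replicate letters did not pair the libraries: deviations of same-lettered libraries correlated from -0.10 to 0.09 over 15 method pairs, 0 of them above 0.1. With the letter as a replicate block, full-length against 3' tag called 6815 genes (6979 without), Smart-seq / C1 against Smart-seq2 2074, in vitro transcription against PCR 2963, CEL-seq2 against MARS-seq 3170, Drop-seq against SCRB-seq 183, any difference 9005 (9359), the C1 difference 2062 and variation 71. Among members the block moved Cdkn1a in Smart-seq / C1 against Smart-seq2 (-1.43, adjusted p = 0.0179), Phlda3 in CEL-seq2 against MARS-seq (1.55, adjusted p = 0.0507) and Sesn2 in in vitro transcription against PCR (1.24, adjusted p = 0.0681) across the threshold.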
